A study of Mus musculus with 9 samples.

Results

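Adm, Slc16a3, Egln3, Ankrd37, Ak4, Hif3a and Stc1 are hypoxia-responsive genes, and their transcripts were followed through RNA-seq of Schwann cells given products of menstrual blood-derived stem cells (MenSCs). The 7 genes were taken by symbol from tables of genes that the authors had listed as differing between groups, which hold 819 genes in all. Each of the 7 symbols matched 1 rat Ensembl gene. They were chosen by the authors' listing of them, that is, selected on the measured group differences, which are therefore given as a description. Intervals and calls from a fit over all listed genes are printed beside them for their size and stability only, and support nothing. The tables hold genes of at least a 2-fold difference and with a p of at most 0.0497 by the authors' own test.

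The cells were RSC96, an immortalised rat Schwann cell line, and the libraries form 3 groups of 3. E-SCs were cells given exosomes, the small vesicles that MenSCs release. M-SCs were cells given medium conditioned by MenSCs. SCs were the control cells, which the sample titles describe as cultured with control MenSCs and the design text as control SCs, so SCs may not stand for untreated cells. The organism label says mouse, whereas all 819 gene identifiers are rat. Doses, times and the oxygen level of the cultures are not given in the sources used here, and the labels do not tell separate cultures from repeat libraries, so the spread within a group may be technical.

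In cells with enough oxygen, prolyl hydroxylases of the EGLN family mark the alpha subunits of hypoxia-inducible factor (HIF), which are then destroyed. When oxygen is short, the alpha subunit persists, pairs with ARNT and binds DNA whose core reads ACGTG or GCGTG, and genes for lactate export, energy balance and blood supply are switched on. In a cut peripheral nerve the gap is poor in oxygen, and Schwann cells migrate across it along newly formed vessels. The 7 genes cover several arms of this response: Egln3, Hif3a and Ankrd37 belong to oxygen sensing or answer HIF directly, Slc16a3 and Ak4 serve metabolism, and Adm and Stc1 encode secreted proteins.

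The HIF core letters can be seen in the promoters of the mouse genes of the same symbols. The sequences are RefSeq's for build GRCm38.p6, and they come from another species than the cells. Of the 7 symbols, 6 matched a promoter, Stc1 being the exception, and a promoter here is the 250 bases before and the 50 bases after a gene start. The letters ACGTG, searched on both strands, occurred in a promoter of Ankrd37, Slc16a3, Egln3 and Ak4, for Ak4 in 1 of several start windows. Over all 32851 mouse promoters of the same length, 19.6% hold ACGTG and 8.21% hold 2 or more matches. These shares are per window, whereas Ak4 had several windows in which to match. The bases just after each start were also sought in mouse transcripts of the same gene. They were not found for the Egln3 and Adm windows or for the Ak4 window holding ACGTG, so those starts are less certain. A palindromic CACGTG, as in Ak4, counts once on each strand, so the 8.21% includes promoters with 1 such place only. The share with 2 separate places was not counted. GCGTG, searched the same way, occurred in promoters of Ak4, Ankrd37, Adm and Hif3a and in 32.4% of all promoters. Slc16a3 and Ankrd37 are shown because each holds ACGTG at 2 separate places, printed in capitals. The Slc16a3 promoter is at chr11:120948817-120949116 on the plus strand, with matches beginning 27 and 14 bases before the start. The Ankrd37 promoter is at chr8:45999801-46000100 on the minus strand, with matches beginning 241 and 6 bases before the start.
Slc16a3: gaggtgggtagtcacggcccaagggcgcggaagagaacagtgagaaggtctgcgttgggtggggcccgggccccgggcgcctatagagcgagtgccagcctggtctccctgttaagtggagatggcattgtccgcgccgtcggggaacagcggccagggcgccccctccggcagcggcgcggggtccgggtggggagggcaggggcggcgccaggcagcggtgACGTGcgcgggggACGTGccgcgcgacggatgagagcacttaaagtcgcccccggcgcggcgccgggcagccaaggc
Ankrd37: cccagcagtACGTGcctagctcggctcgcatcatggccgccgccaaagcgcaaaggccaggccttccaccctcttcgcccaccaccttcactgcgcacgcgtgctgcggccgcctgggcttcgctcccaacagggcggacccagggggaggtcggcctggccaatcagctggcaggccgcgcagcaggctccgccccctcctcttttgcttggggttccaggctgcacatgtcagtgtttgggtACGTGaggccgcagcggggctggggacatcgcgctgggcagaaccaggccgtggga
These matches describe letters in the mouse genome only, and binding was not measured.

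Levels are given as scaled counts, read counts that the authors divided by a factor for each library, in which 1 read was worth 0.861 to 1.15 units depending on the library, so that the reads behind a value can be given. Set against the first E-SCs library, the depth implied by these factors was between 0.868 and 1.16. The sequencing depth itself and the full library totals are unknown because the tables hold selected genes only. A gene with values from 2 tables had identical values in the libraries they share, so the 9 libraries stand on 1 scale. The cell type could be checked only through listed genes. Of 12 Schwann cell markers, 3 had values, among them the myelin genes Prx and Pmp22. Prx was at 951 ± 80.9 (SD, n = 3) after exosomes and 408 ± 43.2 after conditioned medium, and Pmp22 at 859 ± 37.7 and 1746 ± 116. Of 8 macrophage and leukocyte markers, only Cd14 had values, 201 ± 36.7 in SCs, 160 ± 12.8 in E-SCs and 570 ± 59.5 in M-SCs. Of 10 mesenchymal markers, only Nt5e had values, 7.64 ± 5.55 in E-SCs and 21.6 ± 8.12 in M-SCs, and of 5 endothelial markers none had. Cd14 and Nt5e thus moved with the hypoxia-responsive genes, and their part in the results below was not tested. In such bulk RNA, fewer cells of a type and less RNA per cell cannot be told apart.

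In M-SCs, 6 of the 7 genes were higher than in SCs, the exception being Hif3a, for which no SCs value was analysed here. In E-SCs the same 6 lay below M-SCs, and Hif3a lay above. For these 6, the M-SCs mean exceeded that of SCs by 2.19-fold (Ak4) to 3.59-fold (Stc1), and every M-SCs library lay above every SCs library, as for 49.9% of the genes listed for this pair. The exosome-treated cells were not higher: the E-SCs mean of each of the 6 was below that of SCs, by 1.12-fold (Ak4, where the libraries overlapped) to 2.69-fold (Stc1). Folds here are taken on the log2(scaled count + 1) scale. With limma, a linear model for each gene that pools information on the spread over all listed genes, 6 of the 6 genes listed for M-SCs against SCs passed at an adjusted p of 0.05, as did 83.2% of all 405 genes listed. For E-SCs against M-SCs 7 of 7 passed, against 92.1% of 555. In that pair the libraries were apart for all 7, for 6 with E-SCs below, as for 55% of the genes listed, and for 1 with E-SCs above, as for 35%. For E-SCs against SCs the 1 listed gene, Stc1, passed, against 65.4% of 185. Since the genes were listed for these very differences, nothing is read from those counts. Setting the library medians of the listed genes equal shifted the log2 differences by -0.50 when M-SCs were set against SCs and by 0.46 when E-SCs were set against M-SCs. No gene listed for these pairs could change direction by this, since both shifts are smaller than the authors' 2-fold limit. The differences became 0.62 (Ak4) to 1.34 (Stc1) in the former pair. In the latter they became -0.83 (Ak4) to -2.81 (Stc1) for 6 genes and 1.77 for Hif3a. Under that scaling the calls over all listed genes split into 135 higher and 154 lower in M-SCs, in place of 204 and 133, and for E-SCs against SCs into 44 and 73, in place of 59 and 62.

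**Figure D1:**
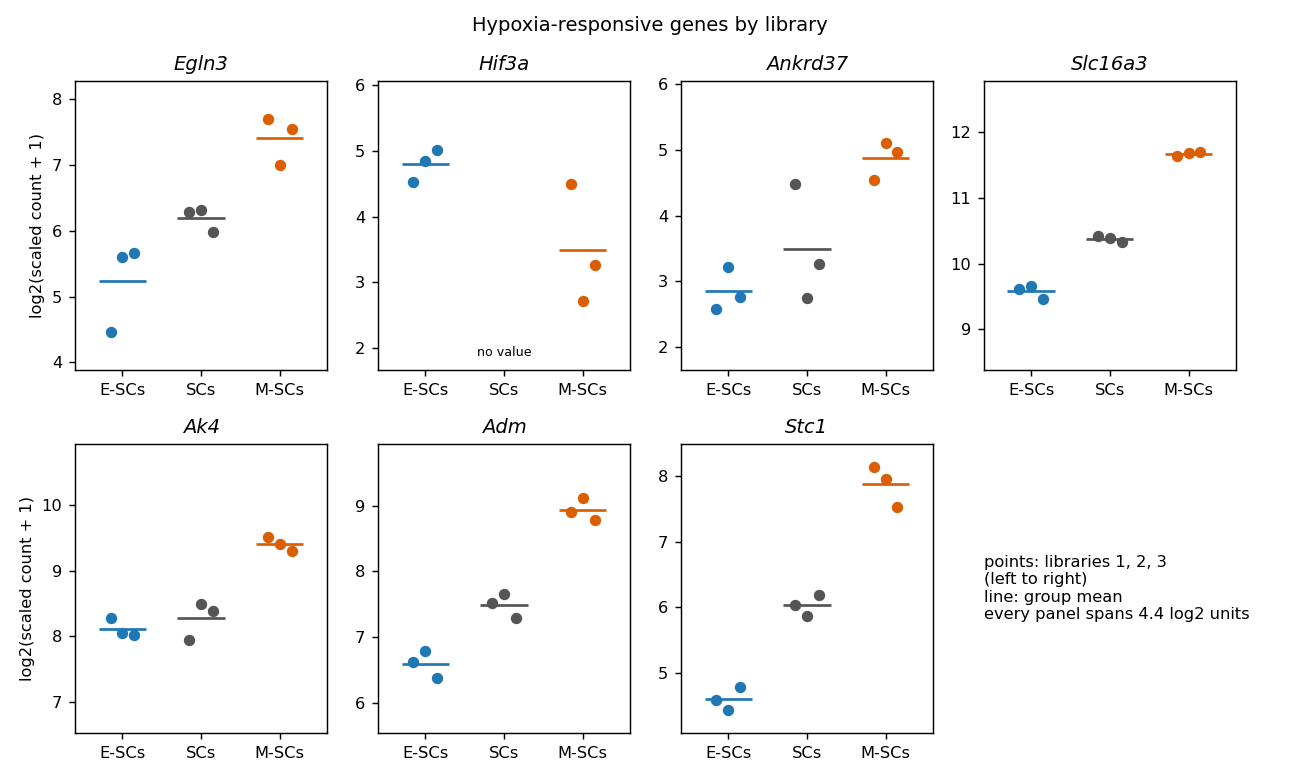
Each panel plots 1 gene, with log2(scaled count + 1) on the vertical axis and the 3 groups on the horizontal axis. Points are single libraries, lines are group means, and Hif3a has no SCs value. In 6 panels the M-SCs points sit highest, and in the Hif3a panel the first M-SCs library lies next to the lowest E-SCs library.

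Egln3 encodes a prolyl hydroxylase (PHD3) that acts on HIF alpha subunits and is itself switched on by HIF. The 3 SCs libraries held scaled counts of 77.2, 79.0 and 62.1, the E-SCs libraries 21, 47.4 and 49.6, and the M-SCs libraries 207, 127 and 186. The 3 groups did not overlap, and the first E-SCs library was well below the other E-SCs libraries. M-SCs exceeded SCs by 1.22 on the log2 scale (SE 0.21), a 2.33-fold difference, and E-SCs differed from M-SCs by -2.18 (SE 0.35). Without the first E-SCs library the latter was -1.79.

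Hif3a encodes a HIF alpha subunit with splice forms, known from mouse, that restrain the other alpha subunits. It stood alone among the 7 genes in being higher in E-SCs than in M-SCs. The E-SCs libraries held scaled counts of 22, 27.8 and 31.1, and the M-SCs libraries 21.4, 5.58 and 8.61. These rest on 22, 27 and 27 reads for the former and 23, 5 and 10 for the latter. The groups thus overlap in reads and stand apart by less than 1 unit after the authors' scaling. The log2 difference was 1.30 (SE 0.51, 95% interval 0.14 to 2.47). In the authors' deposited table the p was 0.026 and the FDR 0.071. Limma's call was lost in 5 of the 6 fits that left out a library, all but that without M-SCs replicate 1, with a log2 difference of 0.92 to 1.44 in those 5. Without M-SCs replicate 1 it was 1.80.

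Ankrd37, a small ankyrin repeat protein gene known as a direct HIF target, was the least read of the 6 genes with values in all 9 libraries. Its SCs libraries held 24, 6 and 8 reads, its E-SCs libraries 5, 8 and 5, and its M-SCs libraries 24, 30 and 35. The first SCs library, at a scaled count of 21.3, nearly reached the lowest M-SCs library at 22.4, while the other SCs libraries lay within or next to the E-SCs range of 5 to 8.25. M-SCs exceeded SCs by 1.38 on the log2 scale (SE 0.51), and in the authors' deposited table the FDR for this pair was 0.052. Limma's call for this pair was lost without SCs replicate 2 or 3 or any 1 of the M-SCs libraries, at log2 differences of 1.0 to 1.54. Without SCs replicate 1 the difference was 1.87. E-SCs differed from M-SCs by -2.02 (SE 0.41), with no overlap of the libraries.

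Slc16a3 encodes MCT4, the carrier that exports lactate from glycolytic cells, and it was the most abundant and the most even of the 7. Its SCs libraries held scaled counts of 1368, 1348 and 1284, the E-SCs libraries 785, 804 and 704, and the M-SCs libraries 3173, 3285 and 3319. The groups were far apart relative to the spread within them. M-SCs exceeded SCs by 1.29 (SE 0.05), and E-SCs differed from M-SCs by -2.09 (SE 0.06), a 4.26-fold difference.

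Ak4 encodes an adenylate kinase of the mitochondrial matrix, which balances nucleotides. Scaled counts were 246, 361 and 332 for the SCs libraries, 308, 263 and 259 for those of E-SCs and 729, 673 and 630 for those of M-SCs. Only M-SCs stood apart, while the E-SCs libraries all lay within the range of SCs. M-SCs exceeded SCs by 1.13 (SE 0.14), the smallest such difference of the 6 genes, and E-SCs differed from M-SCs by -1.29 (SE 0.10).

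Adm encodes adrenomedullin, a secreted peptide that widens vessels. The SCs libraries held scaled counts of 182, 202 and 155, those of E-SCs 98, 109 and 81.8, and those of M-SCs 477, 554 and 439.9. The 3 groups were separate, with E-SCs lowest and M-SCs highest. M-SCs exceeded SCs by 1.44 (SE 0.14), a 2.72-fold difference, and E-SCs differed from M-SCs by -2.34 (SE 0.14), or 5.06-fold.

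Stc1 encodes stanniocalcin 1, a secreted glycoprotein hormone, and on the scaled counts of all libraries its differences were the largest of the 7 genes in each pair of groups. For M-SCs against SCs, Ankrd37 was as high without the first SCs library (1.87, against 1.85 for Stc1). On the log2(FPKM + 1) scale, for E-SCs against M-SCs, Slc16a3 differed by -1.99 and Stc1 by -1.28. It was also the only one listed in all 3 tables. Scaled counts of 64.8, 57.1 and 71.7 for the SCs libraries compare with 23, 20.6 and 26.5 for those of E-SCs and 281, 247 and 183 for those of M-SCs. The 3 groups did not overlap. E-SCs differed from SCs by -1.43 (SE 0.24), M-SCs exceeded SCs by 1.85 (SE 0.19), and E-SCs differed from M-SCs by -3.27 (SE 0.22), or 9.67-fold. Ordered by size among the 325 listed genes with E-SCs below M-SCs, Stc1 took place 10, Adm 65, Egln3 78, Slc16a3 87, Ankrd37 93 and Ak4 204. Hif3a took place 152 of the 230 listed genes higher in E-SCs.

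**Figure D2:**
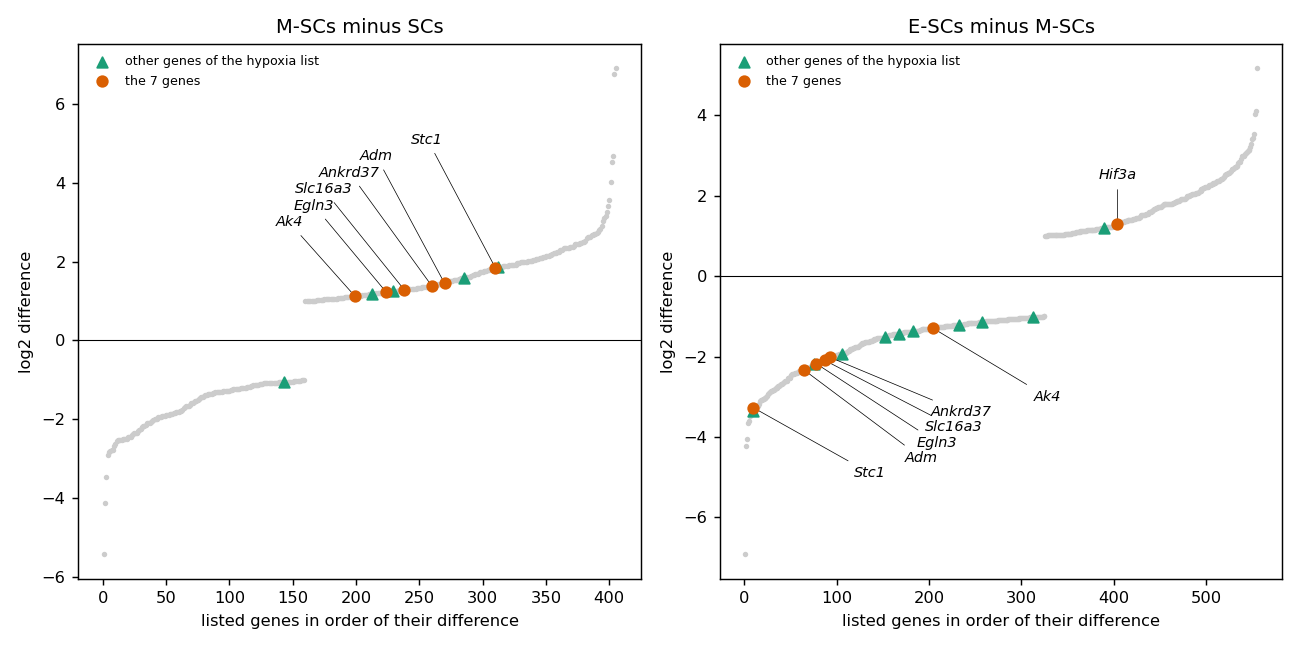
All listed genes are ordered by their log2 difference (vertical axis), for M-SCs minus SCs on the left and E-SCs minus M-SCs on the right. Circles mark the 7 genes and triangles other genes of the hypoxia list; the gap around 0 is the authors' 2-fold limit. On the left the genes lie at 1.13 to 1.85, between places 96 and 207 of the 246 genes higher in M-SCs, and on the right Stc1, at -3.27, lies near the lower end.

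E-SCs could be set against SCs for 6 of the genes, although 5 of them were not listed for E-SCs against SCs. These 5 differences come from 1 limma fit of all 9 libraries over the 316 genes with a value in each. E-SCs were below SCs by 0.89 on the log2 scale for Adm (95% interval of the difference -1.23 to -0.56). For Slc16a3 the difference was -0.80 (-0.94 to -0.67) and for Egln3 -0.96 (-1.68 to -0.24), or -0.57 without the first E-SCs library. For all of these the E-SCs libraries lay below every SCs library. For Ankrd37 it was -0.64 (-1.77 to 0.48), or -0.15 without the first SCs library, and for Ak4 -0.16 (-0.48 to 0.15), the libraries overlapped, and these intervals include 0.

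With Stc1, 4 of the 6 genes had all E-SCs libraries below all SCs libraries, against 20.6% of the 316 genes. The median difference of the 6 was -0.85, against -0.02 over the 316 genes. All of these comparisons share the SCs or the E-SCs libraries with the comparisons that chose the genes, so they are not independent of that choice. Egln3 and Adm were just outside the authors' 2-fold limit here, at 1.94-fold and 1.86-fold, and Ak4 in M-SCs against SCs, at 2.19-fold, was just inside it. The SCs mean of Egln3 and Stc1 lay 44.0% and 43.6% of the way from the E-SCs to the M-SCs mean on the log2 scale, that of Slc16a3 and Adm 38.4% and 38.2%, that of Ankrd37 31.8% and that of Ak4 12.5%.

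**Figure D3:**
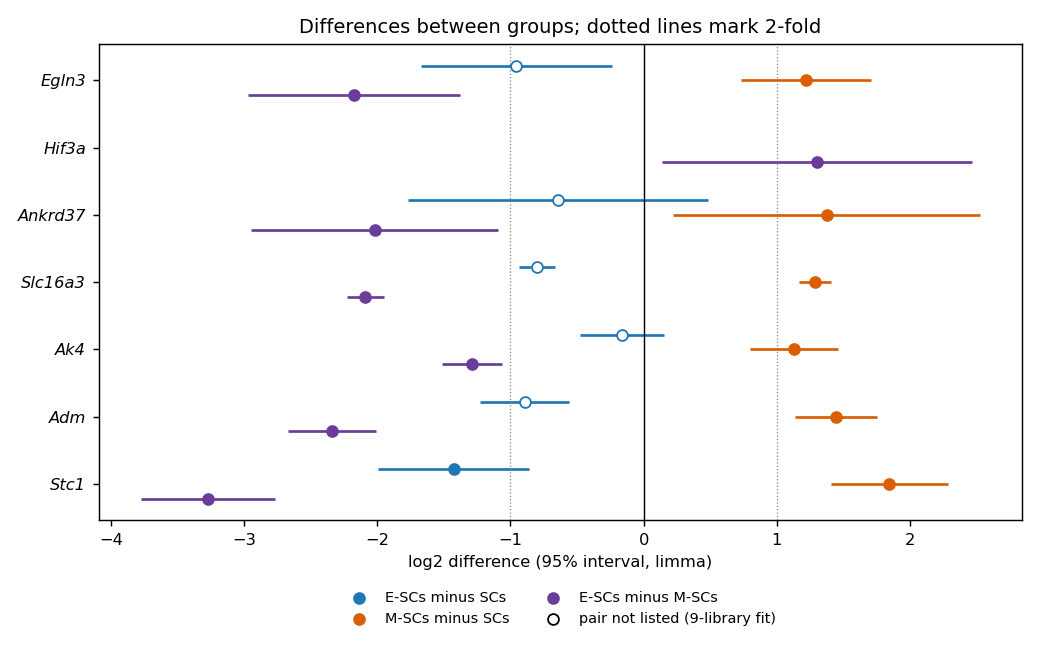
Points give the log2 difference for each gene (rows) and pair of groups (colours), with limma's 95% interval as a line. Filled points come from the table that lists the pair and open points from the fit of all 9 libraries. E-SCs minus SCs runs from -1.43 (Stc1) to -0.16 (Ak4), and the interval of Hif3a, 0.14 to 2.47, is among the widest.

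Levels between genes are compared in FPKM, which divides reads by transcript length and depth, as the authors deposited it. In SCs the order was Slc16a3 at 19.1 ± 0.60 (SD, n = 3), Ak4 at 9.38 ± 1.80, Adm at 3.97 ± 0.51, Egln3 at 0.787 ± 0.10, Stc1 at 0.515 ± 0.058 and Ankrd37 at 0.404 ± 0.291. Slc16a3, Ak4 and Adm were thus well above the others, while Ankrd37 could not be placed below Egln3 or Stc1 beyond its spread. In M-SCs Slc16a3 reached 46.6 ± 1.05, Ak4 20.3 ± 1.5 and Adm 10.8 ± 1.24. Stc1, at 1.89 ± 0.40, came level with Egln3, at 1.88 ± 0.46, with Ankrd37 at 0.992 ± 0.206 and Hif3a lowest at 0.175 ± 0.126. In E-SCs Slc16a3 was at 11 ± 0.81, next to Ak4 at 8.36 ± 0.85, and Adm was at 2.15 ± 0.32. Egln3 at 0.424 ± 0.175 and Hif3a at 0.400 ± 0.067 did not differ beyond their spread, nor did Ankrd37 at 0.216 ± 0.051 and Stc1 at 0.184 ± 0.026. Stc1 thus stood level with Ankrd37 in E-SCs and level with Egln3 in M-SCs.

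**Figure D4:**
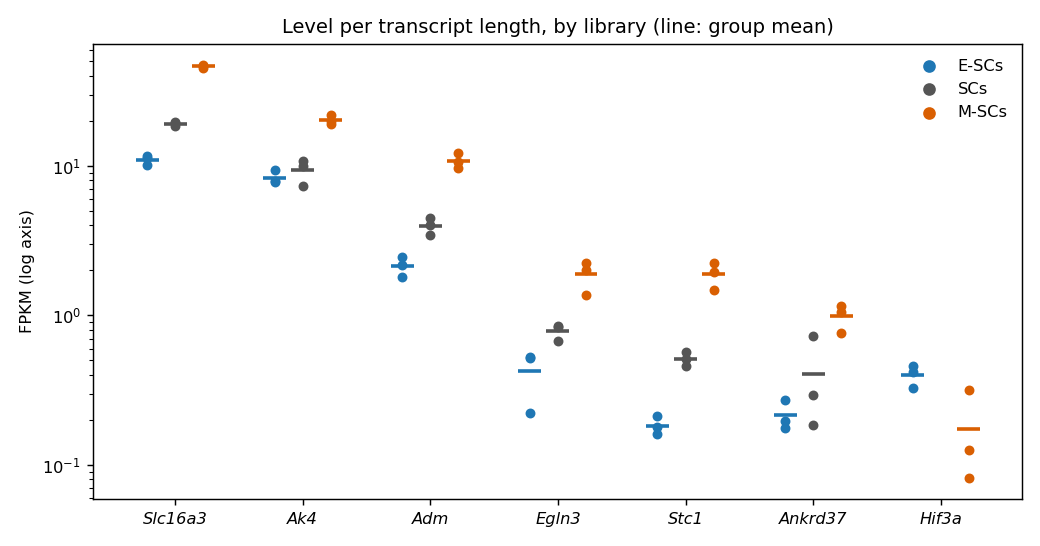
FPKM is plotted on a log axis for each gene, with 1 point per library and a line at each group mean. Slc16a3 runs from 11 in E-SCs to 46.6 in M-SCs on average, and Stc1 from 0.184 to 1.89, the widest range of the 7.

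A list of 83 genes of the HIF system and its known targets, the 7 included, was searched in the tables. Beside the 7 genes, 10 others had a row. The remaining 66, among them Vegfa, Pgk1, Ldha, Slc2a1, Bnip3 and Hif1a, had none among the rows analysed here, which does not show that they were unchanged. For M-SCs against SCs 5 of the 10 were listed and each was called by limma after adjustment over the table, 4 higher and 1 lower, against 50.4% and 32.8% of all listed genes. For E-SCs against M-SCs all 10 were listed and called, 9 lower and 1 higher in E-SCs, against 55.5% and 36.6%. The median difference of these 10 was -1.40, against -1.10 over all 555 genes.

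Among the secreted and vascular genes, Angptl4, an inhibitor of lipoprotein lipase, followed the order of Stc1. The SCs libraries held 414, 408 and 412, those of E-SCs 159, 168 and 118, and those of M-SCs 1484, 1453 and 1574, so that M-SCs exceeded E-SCs by 10.2-fold. It was the only other gene of the list among those listed for E-SCs against SCs, at -1.48 (SE 0.16), and 33.5% of that table passed in this direction. Edn1, the vasoconstrictor endothelin 1, was at 107 ± 8.89 in SCs, 71.0 ± 12.1 in E-SCs and 322 ± 8.28 in M-SCs. Apln, the vascular peptide apelin, was 2.87-fold lower in E-SCs, at 399.7 ± 13.4 against 1150.0 ± 26.2 for M-SCs.

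The oxygen sensor Egln1, which encodes the main HIF prolyl hydroxylase, had 694, 786 and 799 for the E-SCs libraries and 1633, 1720 and 1678 for those of M-SCs, which differ by -1.14 (SE 0.07) on the log2 scale. Lox, a collagen cross-linking enzyme, was at 1723 ± 152 in SCs, 1029 ± 78.3 in E-SCs and 3904 ± 113 in M-SCs. Tfrc, the transferrin receptor for iron uptake, exceeded SCs by 1.24 (SE 0.06) in M-SCs, and its E-SCs libraries overlapped those of SCs. Ndrg1, a stress-responsive gene, differed by -1.21 (SE 0.04) between E-SCs and M-SCs, and Ndufa4l2, a mitochondrial protein gene, by -1.43 (SE 0.42). Of the 27 glycolysis and lactate genes, the lactate exporter Slc16a3 and the glycolytic enzyme Tpi1 had a row. Tpi1 was 2.03-fold lower in exosome-treated cells than in M-SCs. Vldlr, a lipoprotein receptor, ran the other way, at 126 ± 17.0 in M-SCs, 263 ± 23.4 in SCs and 294 ± 55.4 in E-SCs.

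The genes whose pattern was most like that of the 6 genes other than Hif3a were sought among 117 named genes with 9 values and a mean log2 value of at least 5. Likeness was the root mean square difference between a gene's log2 profile over the 9 libraries, centred on its own mean, and the mean centred profile of the 6. The nearest were Ccl2, a monocyte chemokine, at 0.17, Cpt1a, which brings fatty acids into mitochondria, at 0.19, Lox at 0.20, Edn1 and Serpinf1, a secreted serpin, at 0.21, and Zc3h12a, an RNase that limits inflammation, at 0.23. Ccl2, for example, had mean log2 values of 9.61 in E-SCs, 10.06 in SCs and 11.60 in M-SCs. Of the 6 themselves Slc16a3 and Adm lay nearest the mean profile, at 0.11 and 0.17, and Stc1, with its wider range, farthest at 0.48. Over the 6 libraries of E-SCs and M-SCs, the nearest of 249 genes to Hif3a was Srgap3, at 0.24, and Bdnf, a neurotrophin, was also near, at 0.40.

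The annotation in the authors' tables tied the 7 genes together only in part. Of the 7, 4 carried a KEGG pathway, and Egln3 alone was placed in HIF-1 signaling. Slc16a3 was placed in central carbon metabolism in cancer, Ak4 in purine and thiamine metabolism and Adm in vascular smooth muscle contraction. The mitochondrion was given as a cellular component for 3 of them, Ankrd37, Ak4 and Hif3a, and the extracellular space for 2, Adm and Stc1.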

How the data were processed

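RNA-seq of 9 libraries was analysed from 3 tables of listed genes, each with 6 libraries. HISAT2, StringTie and mm10 are named, without versions or roles, per the submitters' processing notes. All identifiers are rat, so the measured genes are given no coordinates. Log2 values, deposited by the authors, equal log2 of a library-scaled count plus 1: within 0.01 reads, every value up to 1000 reads was a whole multiple of its library's step, which gave the reads. FPKM, deposited by the authors, stands in 2 tables. The deposited p-values and FDR (q-values) come from a test of the authors that no label names.

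Each table was fitted with limma 3.58.1 (R 4.3.3, with a mean-variance trend) on its log2 values, and p-values were adjusted by Benjamini-Hochberg over that table. The procedure was tested on simulated data without preselection of genes and with the same added spread for every gene. That test does not cover the preselected tables or genes as uneven as Ankrd37 and Hif3a. Pairs not listed came from 1 fit of all 9 libraries over 316 genes. Since the tables hold preselected genes, adjusted p-values are too small. Summaries used Python 3.11.15, pandas 2.3.3 and numpy 2.4.6, and plots matplotlib 3.10.9. The 7 genes, the hypoxia list and the tests were chosen with earlier results of these data known. Genes were named if they were among the 7, if they were in the hypoxia list with a row, or if their profiles were nearest. Identifiers without an established symbol were left out of the nearest profiles, and some genes that met these rules are not reported here. Alternatives were a pseudocount of 0.1, a minimum mean log2 of 5, equal medians, a replicate block, log2(FPKM + 1), limma-voom on the reads, and each library left out. Whole-library depth is unknown.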

Additional observations from a re-analysis of the deposited data

Results flagged for a closer look

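For 4 of the 6 genes with values in all 9 libraries, every E-SCs library lay below and every M-SCs library above all SCs libraries. The treatments thus differed from the same control in opposite directions. The share of all genes with both traits was not counted, so nothing is read from this count. Taken singly, E-SCs lay below SCs for 20.6% of 316 genes, and M-SCs above SCs for 49.9% of the 405 listed. The log2 difference of E-SCs minus M-SCs was -2.34 for Adm, -2.09 for Slc16a3, -2.18 for Egln3 and -3.27 for Stc1. The genes were chosen from this very contrast, so limma's calls for it are not independent evidence, no test free of that choice was made, and the difference was in that sense not tested. A gene on opposite sides of SCs is favoured by the 2-fold listing of E-SCs against M-SCs.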

How the results depend on the processing

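The number of genes called for E-SCs against SCs (121) became 34 of 36 tested once genes with a mean log2 value under 5 were dropped, 66 of 104 when all 9 libraries were fitted together, and 78 to 105 with 1 library left out. For M-SCs against SCs (337) it was 165 of 165, 216 of 251 and 275 to 293, and for E-SCs against M-SCs (511) it was 270 of 270, 258 of 287 and 429 to 440. The filter and the 9-library fit test fewer genes, and fits with a library left out have fewer samples. The hypoxia-responsive genes called numbered 5 or 6 of 6 for M-SCs against SCs and 6 or 7 of 7 for E-SCs against M-SCs with 1 library left out. Equal medians moved the differences of listed pairs by -0.23, -0.50 and 0.46 in the order above, the medians being those of genes selected for differing. The 5 pairs not listed, fitted over other genes, moved by less, for example Adm from -0.89 to -0.86. Ankrd37 then missed the threshold in M-SCs against SCs (log2 difference 0.87). All 251 alternatives of the 19 differences of the 7 genes kept their direction, but for many this was fixed in advance. The filter, the replicate block, the 9-library fit and leaving out a library outside the pair do not change a difference. Equal medians cannot reverse a listed pair, nor can leaving out a library reverse a pair whose libraries do not overlap. Of the 251, 24 moved by at least the SD between libraries, each of them under equal medians or log2(FPKM + 1). The latter, whose added 1 is large beside FPKM values under 1, gave E-SCs minus M-SCs differences of 0.26 for Hif3a, -0.71 for Ankrd37, -1.01 for Egln3 and -1.28 for Stc1. For M-SCs minus SCs it gave 0.52 for Ankrd37, 0.68 for Egln3 and 0.93 for Stc1, and for E-SCs minus SCs -0.19 for Ankrd37 and -0.33 for Egln3.

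A replicate block in limma gave 122, 338 and 493 genes called and the same number of hypoxia-responsive genes as without it. Same-numbered libraries correlated at -0.33 to 0.20 in their deviations from the group means, so the numbers were not taken as pairs. On the recovered reads, whole for 100% of the values tested, limma-voom called 107, 328 and 501 genes. Log2(FPKM + 1) was not run for the table of E-SCs against SCs, which was analysed here without FPKM. Precision is limited most for Ankrd37 and Hif3a, with 18 reads for the former in all E-SCs libraries together and 38 for the latter in those of M-SCs.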
